A study of Mus musculus with 4 samples.

Results

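The genes described here are the Nr4a nuclear receptors (Nr4a1, Nr4a2 and Nr4a3), the Egr zinc-finger factors (Egr1, Egr2, Egr3 and Egr4) and the Egr corepressors Nab1 and Nab2. They were taken by gene name, and all 9 were found among the 50600 genes of the count tables. The data were 4 RNA-seq libraries of 1 group, regulatory T cells described as primary cells of C57BL/6NJ mice, with no other condition. No transgene, deletion or agent is named in the labels; sex was not collected, and age is given as unknown. The labels name the assay as total RNA-seq, but the library protocol they link is named for polyadenylated RNA, and they also link a protocol for differentiating CD4+ T cells. In the file headers, "activated" and "48h" form part of the alignment names of all 4 libraries; they were not used as a group. Each library has a biosample of its own and all share 1 donor record. The labels do not say which animals or cultures the biosamples came from, so p-values measure only the spread between these 4 biosamples. Replicates 1 and 2 differ from replicates 3 and 4 in Xist and in Y-linked genes (values below), so the 4 are not repeats of 1 animal's cells; within each pair the spread may be technical.

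Nr4a and Egr genes are early response genes: they are switched on within minutes to hours of antigen receptor signalling, through calcium, MAP kinase and cyclic AMP pathways, without new protein synthesis. Nr4a receptors bind DNA as orphan receptors, alone, as pairs with one another or, for Nr4a1 and Nr4a2, with the retinoid X receptors. In T cells they are known for supporting Foxp3 and for restraining effector cells. Egr2 and Egr3 are known in T cells for anergy genes and for limiting activation, and Nab1 and Nab2 bind Egr1, Egr2 and Egr3 and recruit the NuRD corepressor complex.

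The totals were 43821767, 58696937, 73819468 and 52005209 counts in replicates 1 to 4. Levels are given as TPM, the count per base of exon, scaled to the same sum in each library, so that genes can be compared. All 10 regulatory T cell markers and all 9 general T cell markers reached 1 TPM in every library, with Foxp3 at 289 ± 23.5 (SD, n = 4) and Cd4 at 611 ± 25.4. Of 7 B cell markers, 3 were at 1 TPM or above in each library, namely Ighm, the mu heavy chain, at 403 ± 14.5, Igkc at 4.89 ± 1.49 and Cd79b at 3.11 ± 0.466, while Ms4a1 and Pax5 stayed at or below 0.0512 TPM; the list summed to 397 to 430 TPM. The part of B cell RNA in the levels below was not tested. The summed level of 8 macrophage and dendritic markers ran from 4.57 to 6.58 TPM. Lyz2 was at 0 in all libraries, but Cd68 (4.23 ± 0.990 TPM) and Adgre1 (1.30 ± 0.328 TPM) reached 1 TPM in each. The sum of 8 CD8 T and NK markers ran from 10.8 to 15.3 TPM. Most of it was Cd8b1, at 11.7 ± 1.75 TPM and the only one at 1 TPM or above in each library, while Ncr1 was at 0. In bulk RNA, fewer cells of a type and less RNA per cell cannot be told apart, which applies to every level below.

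In these cells Nr4a1 and Nr4a3 were the leading members, Egr3, Nab2, Egr1, Egr2 and Nab1 followed at intermediate levels, and Nr4a2 and Egr4 were low. Expression was called where each of the 4 libraries reached 1 TPM, which held for 8 of the 9 genes, beside 22.9% of all 50600 genes. Nr4a1, Nr4a3, Egr3, Nab2 and Egr1, 5 of the 9, were above 100 TPM in all 4 libraries, beside 3.98% of all genes. The median mean level of the 9 genes was 122 TPM, and that of the 11593 expressed genes was 28.6 TPM.

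**Figure D1:**
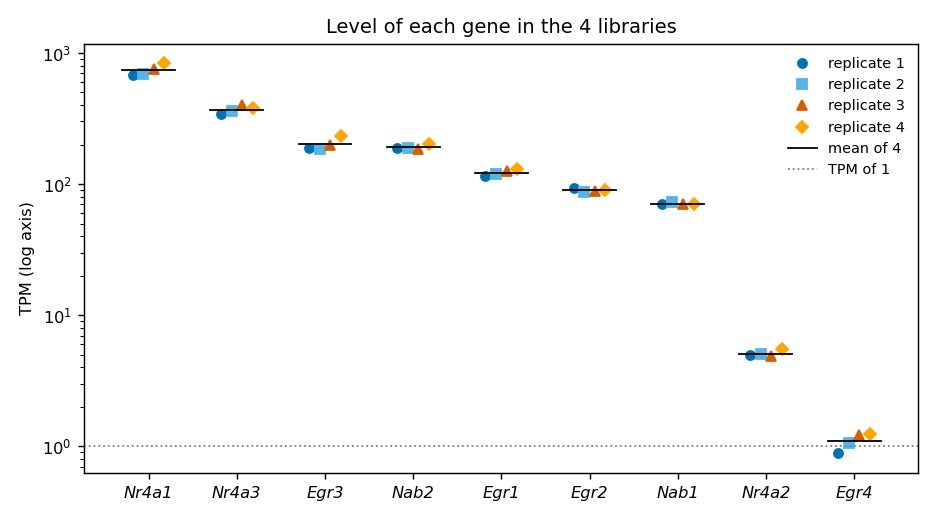
TPM of each gene (log axis) in the 4 regulatory T cell libraries; symbols are replicates, black lines are means of 4 and the dotted line marks a TPM of 1. Nr4a1 sits at 681 to 830 TPM, Egr1, Egr2, Egr3, Nab1 and Nab2 between 69.9 and 231 TPM, and Nr4a2 and Egr4 at or below 5.49 TPM.

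Nr4a1 (ENSMUSG00000023034.6; mm10, chromosome 15, 101266846 to 101274792, plus strand), also called Nur77 and widely used as a reporter of antigen receptor signalling, had TPM values of 681, 689, 751 and 830 in replicates 1 to 4, a mean of 738 ± 69.0 (SD, n = 4). It was lowest in replicates 1 and 2 and highest in replicate 4, which held 1.22 times the level of replicate 1. These values rest on 21289 to 40223 counts per library. Among the 11593 expressed genes Nr4a1 ranked 169 by mean TPM.

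Nr4a3 (ENSMUSG00000028341.9; chromosome 4, 48045153 to 48086447, plus strand), or Nor1, whose transcription follows calcium and NFAT signalling in T cells, stood at 340.5, 359, 403 and 377 TPM, a mean of 370.0 ± 26.7. Its highest library was replicate 3, and replicates 3 and 4 again lay above replicates 1 and 2. Its rank among expressed genes was 432. The Nr4a1 level was 1.995 ± 0.149 times the Nr4a3 level within a library, with a range of 1.86 to 2.20.

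Nr4a2 (ENSMUSG00000026826.13; chromosome 2, 57106830 to 57124003, minus strand), or Nurr1, best known from dopamine neurons, was measured at 4.95, 5.09, 4.88 and 5.49 TPM, a mean of 5.10 ± 0.274, from 254 to 429 counts. It was low in all 4 libraries, with rank 9716 of the expressed genes. The Nr4a1 level was 144 ± 9.34 times and the Nr4a3 level 72.6 ± 6.70 times the Nr4a2 level in the same library. Within the summed TPM of the 3 receptors, Nr4a1 made up 66.2 ± 1.61%, Nr4a3 33.3 ± 1.61% and Nr4a2 0.460 ± 0.0294%.

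The order of Nr4a1 and Nr4a3 depends on dividing by length. In counts not divided by length, Nr4a1 made up 44.9% and Nr4a3 54.6% of the family, because the exons counted for Nr4a3 span 5987 bases and those for Nr4a1 2474 bases. Levels between genes are therefore stated per length throughout.

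The sequence just upstream of each Nr4a start is shown because the same short element recurs in all 3. The letters are mm10 sequence in the orientation of the gene, from the RefSeq promoter table for GRCm38.p6, which holds 7 of the 9 genes. Capitals mark TGACG or its reverse complement CGTCA, the core of the cyclic AMP response element, searched on both strands. Nr4a1 is shown for chr15:101266596-101266845 on the plus strand, Nr4a2 for chr2:57124004-57124253 on the minus strand, and Nr4a3 for chr4:48045055-48045152 on the plus strand, which is the piece of its window that lies upstream of the counted exons.
Nr4a1: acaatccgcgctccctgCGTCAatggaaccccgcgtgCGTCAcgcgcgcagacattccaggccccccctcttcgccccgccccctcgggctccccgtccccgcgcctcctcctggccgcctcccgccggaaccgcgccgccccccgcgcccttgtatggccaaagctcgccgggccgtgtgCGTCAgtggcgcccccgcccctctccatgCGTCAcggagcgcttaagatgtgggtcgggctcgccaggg
Nr4a2: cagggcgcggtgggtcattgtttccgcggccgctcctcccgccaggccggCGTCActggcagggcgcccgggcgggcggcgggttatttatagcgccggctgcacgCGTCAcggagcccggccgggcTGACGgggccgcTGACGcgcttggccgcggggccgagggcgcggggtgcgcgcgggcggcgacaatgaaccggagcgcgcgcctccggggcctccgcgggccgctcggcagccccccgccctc
Nr4a3: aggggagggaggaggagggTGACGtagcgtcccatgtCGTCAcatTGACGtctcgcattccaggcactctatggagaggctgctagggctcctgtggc
Each of the 3 windows of 250 bases upstream of the RefSeq start held 4 matches, the fourth of Nr4a3 lying in its counted first exon at chr4:48045153-48045167 (ataaaTGACGtgccg). Among the 32851 promoters of the table, 17.8% held at least 1 match in such a window and 0.137% held at least 4. The 4 matches of Nr4a1 began 233, 213, 69 and 40 bases upstream of the start, and those of Nr4a2 200, 144, 123 and 111 bases upstream. The highly expressed Nr4a1 and Nr4a3 and the low Nr4a2 thus held the same number of matches. The motifs were chosen with these sequences in view, and a match is a description of the letters, not a site of binding.

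The Nr4a genes were set beside the other nuclear receptors, the ligand-regulated transcription factor family they belong to. Of 49 nuclear receptor genes, 24 were expressed and 19 had no count in any library. Nr4a1 and Nr4a3 ranked 1 and 2 of the 49 by mean TPM and Nr4a2 ranked 20. The 3 Nr4a genes together reached 1113 ± 87.6 TPM, which was 62.4 ± 2.58% of the summed TPM of all nuclear receptors.

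**Figure D2:**
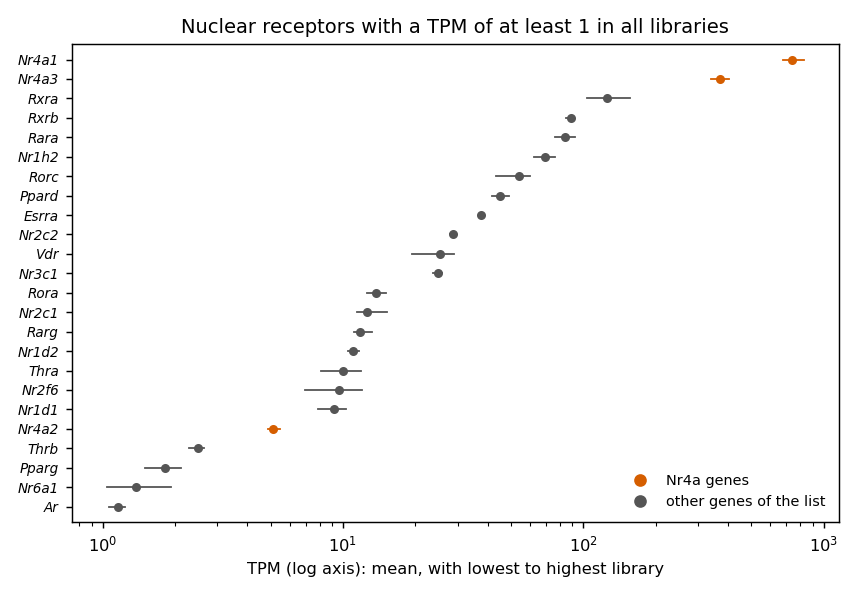
Mean TPM (log axis) of the 24 expressed nuclear receptor genes, with lines from the lowest to the highest of 4 libraries; Nr4a genes are orange and the others grey. Nr4a1 at 738 and Nr4a3 at 370.0 TPM lie above Rxra at 126 TPM, whereas Nr4a2 at 5.10 TPM lies in the lower part.

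Rxra and Rxrb encode the retinoid X receptors that Nr4a1 and Nr4a2 can pair with. Rxra stood at 157, 104, 118 and 127 TPM in replicates 1 to 4 and Rxrb at 90.6, 84.9, 89.0 and 91.2 TPM. The Nr4a sum was 4.16 times the summed Rxra and Rxrb level in replicate 1 and 5.58, 5.60 and 5.57 times it in replicates 2 to 4. Replicate 1 combined the highest Rxra level with the lowest Nr4a1 and Nr4a3 levels. Rxra was the only gene of the gene lists used here that passed the test of one library against the other 3 described below, with a log2 difference of 0.42 (SE 0.08, edgeR adjusted p = 0.045) in replicate 1, where 1 of 4 libraries carries the difference.

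Among the Egr factors, Egr3 (ENSMUSG00000033730.3; chromosome 14, 70077445 to 70080157, plus strand), induced through NFAT in T cells, was the most abundant per length. It had TPM values of 187, 184, 199 and 231 in replicates 1 to 4, a mean of 200.4 ± 21.6 from 3341 to 6103 counts. Replicate 4 was the highest, 1.26 times the lowest library, and Egr3 ranked 929 of the expressed genes. The gene model behind these counts is short: its exons span 1416 bases, while those of the later GENCODE M21 model, at 70077203 to 70082614, span 4406 bases, of which 2990 were not counted. Reads in those bases do not enter the Egr3 level, and how far that moves it was not tested.

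Egr1 (ENSMUSG00000038418.7; chromosome 18, 34859823 to 34864984, plus strand), the classical serum and growth factor response gene of the family, stood at 115, 118, 125 and 131 TPM, a mean of 122 ± 6.99. Replicates 3 and 4 were again the higher ones. Egr1 ranked 1733 of the expressed genes, and the Egr3 level was 1.63 ± 0.0906 times the Egr1 level. The counted Egr1 exons span 4484 bases. In the shortest M21 transcript with an APPRIS tag, the mark GENCODE gives to main isoforms, 3036 bases are counted. Dividing all Egr1 counts by that length, with the scaling of the library left as it was, gave 181 ± 10.3. That value is higher by construction, since reads from the other counted bases were kept.

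Egr2 (ENSMUSG00000037868.15; chromosome 10, 67535475 to 67542188, plus strand), which with Egr3 restrains T cell activation, had values of 93.7, 87.4, 89.1 and 90.8 TPM, a mean of 90.2 ± 2.69. It was the steadiest of the Egr genes and, unlike Egr1 and Egr3, was highest in replicate 1. Its rank among expressed genes was 2354.

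Egr4 (ENSMUSG00000071341.4; chromosome 6, 85511121 to 85513589, minus strand), known mainly from neurons and male germ cells, was at 0.885, 1.05, 1.23 and 1.24 TPM, a mean of 1.10 ± 0.166. With 24 to 57 counts per library it missed the expression threshold in replicate 1 alone and passed it in the other 3. The Egr2 level was 83.7 ± 15.5 times the Egr4 level. Within the summed TPM of the 4 Egr genes, Egr3 made up 48.3 ± 1.80%, Egr1 29.6 ± 0.720%, Egr2 21.9 ± 1.53% and Egr4 0.265 ± 0.0305%. In counts not divided by length Egr1 led with 48.1%, and Egr3 made up 24.8%.

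**Figure D3:**
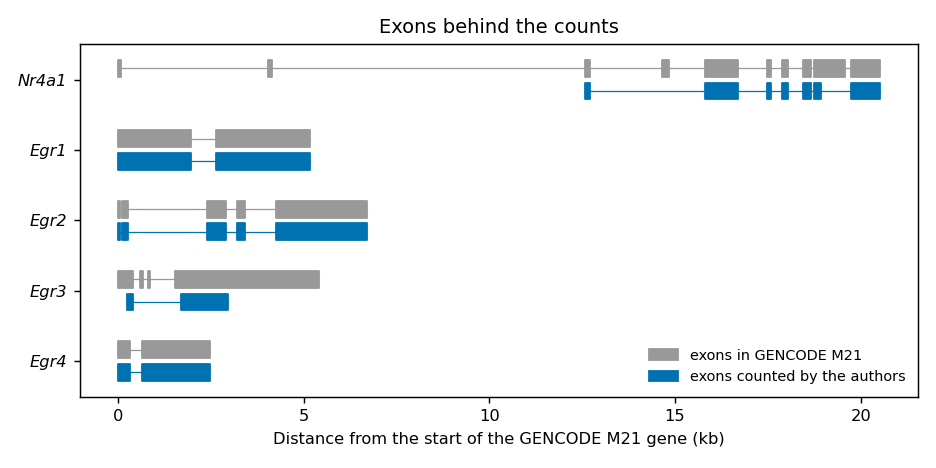
Exons (boxes) of Nr4a1 and the Egr genes in the annotation the authors counted (blue) and in GENCODE M21 (grey), by distance in kb from the start of the M21 gene. Egr3 shows M21 exon sequence on both sides of the counted exons, 2990 bases in all, and Nr4a1 has 1035 uncounted bases, whereas the models of Egr1, Egr2 and Egr4 are alike.

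Egr2 and Egr4 are the only Egr genes matched in the promoter table, so their promoters are shown. Egr1 and Egr3 had no matched entry and were not searched. Egr2 is well expressed and Egr4 near the threshold, with the same element count. Capitals again mark TGACG or CGTCA and, in Egr2, a CArG box, the element bound by serum response factor. Egr2 is shown for chr10:67537619-67537868 on the plus strand and Egr4 for chr6:85513590-85513839 on the minus strand.
Egr2: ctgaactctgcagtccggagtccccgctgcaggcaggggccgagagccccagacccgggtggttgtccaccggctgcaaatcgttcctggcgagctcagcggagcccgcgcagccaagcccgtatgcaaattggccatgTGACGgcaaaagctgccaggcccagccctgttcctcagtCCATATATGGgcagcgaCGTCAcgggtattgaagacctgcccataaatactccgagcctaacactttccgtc
Egr4: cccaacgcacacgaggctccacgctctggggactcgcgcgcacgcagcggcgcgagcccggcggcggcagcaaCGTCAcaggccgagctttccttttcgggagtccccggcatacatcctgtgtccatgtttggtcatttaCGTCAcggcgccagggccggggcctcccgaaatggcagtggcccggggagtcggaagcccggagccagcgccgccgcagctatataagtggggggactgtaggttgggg
Both held 2 matches to the cyclic AMP element core, a number that 3.90% of the 32851 promoters reached. The CArG box of Egr2 began 72 bases upstream of its RefSeq start and was absent from the Egr4 window. Of all promoters, 1.47% held one. That RefSeq start, 67537869, lies inside the counted Egr2 gene, which begins at 67535475, so the Egr2 window falls between counted exons. The element that Nr4a receptors bind as single molecules, AAAGGTCA, was found in none of the 7 matched windows on either strand, and 1.34% of all promoters held it.

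The corepressor Nab2 (ENSMUSG00000025402.12; chromosome 10, 127660918 to 127668568, minus strand), itself an Egr target in many cells, had TPM values of 188, 188, 186 and 202 in replicates 1 to 4, a mean of 191 ± 7.48. Replicate 4 was the highest and the other 3 lay between 186 and 188 TPM. Nab2 ranked 1002 of the expressed genes. Its exons overlap genes of the opposite strand, among them Stat6 and Nemp1, over 1241 bases, and the file headers set counting to 1 strand.

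Nab1 (ENSMUSG00000002881.14; chromosome 1, 52457294 to 52500679, minus strand), the paralog usually described as the less inducible one, stood at 69.9, 73.2, 70.1 and 69.9 TPM, a mean of 70.8 ± 1.59. Here replicate 2 was the highest, and the other 3 were close together. The Nab2 level was 2.70 ± 0.137 times the Nab1 level, so that Nab2 made up 73.0 ± 0.978% of the pair's summed TPM. The summed TPM of the 4 Egr genes was 414 ± 28.6 and that of the 2 Nab genes 262 ± 7.16, a ratio of 1.58 ± 0.0775 that ran from 1.497 in replicate 2 to 1.67 in replicate 4.

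Nab1 is shown for another element, the Egr binding site GCGGGGGCG or GCGTGGGCG, searched on both strands. The window of 250 bases upstream of its RefSeq start held 3 matches, in capitals below, at chr1:52500576-52500594, chr1:52500544-52500562 and chr1:52500473-52500491 on the minus strand, and all 3 lie inside the counted first exon.
Nab1, 141 bases upstream: gcggcCGCCCACGCcggga
Nab1, 109 bases upstream: gccgcGCGTGGGCGggagc
Nab1, 38 bases upstream: gcgggGCGGGGGCGgcgga
Of the 32851 promoters, 3.06% held at least 1 such match and 0.0335% at least 3. Among the matched genes Nr4a1 had 1 match, at chr15:101266781-101266799 (agtggCGCCCCCGCccctc), and Nr4a2, Nr4a3, Egr2, Egr4 and Nab2 had none. In these windows the less abundant corepressor thus held the matches. The Nab2 window, however, lies upstream of a RefSeq start at 127666703, inside the counted gene, which extends to 127668568 on the minus strand. Sequence upstream of the counted Nab2 gene was not searched, so the Nab1 and Nab2 windows are not at like positions.

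The sequence TATTTAT, an AU-rich element core that marks unstable mRNAs, was also counted in each gene's longest 3′ UTR among the APPRIS transcripts of M21. It occurred in 4 of the 9 genes, with 2 matches in Nr4a3 and 1 each in Nr4a2, Nab1 and Nab2, and in none of the Egr genes. Among 9819 expressed genes with a 3′ UTR of at least 100 bases, 30.5% held at least 1 match and 10.4% at least 2. The median 3′ UTR of those genes was 1123 bases. In the 9 genes it ran from 519 bases in Egr4 to 3093 in Nr4a3, and Egr3, with 2645 bases, held no match. The matches were not adjusted for length.

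The genes were then ordered by mean TPM, as Nr4a1, Nr4a3, Egr3, Nab2, Egr1, Egr2, Nab1, Nr4a2 and Egr4. Of the 8 neighbouring pairs, 7 had ranges that did not overlap over the 4 libraries, with the higher gene above in 4 of 4 libraries. The exact sign-flip permutation test of the within-library log2 ratio, two-sided, gave p = 0.125 for each of these, the smallest that 4 libraries allow, and 0.143 after Benjamini-Hochberg adjustment over the 8 pairs, so no pair could pass 0.05. Egr3 and Nab2 did not differ beyond their spread: Egr3 was 1.05 ± 0.076 times Nab2, higher in 2 of 4 libraries (exact p = 0.5). An alternative chosen after seeing the data divided the same counts by the length of the shortest APPRIS transcript, with the scaling unchanged. Nab2 at 243 ± 9.52 then came before Egr3 at 234 ± 25.2, and both values are higher by construction.

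To see whether 1 library departed from the rest at these genes, each library was compared with the other 3 by edgeR's quasi-likelihood test over the 12917 genes that passed a filter on low counts. Such a comparison calls genes in 1 library, not in a condition. A difference shared by replicates 3 and 4 widens the spread of the libraries compared, so this test is poorly placed to call it. None of the 9 genes passed an adjusted p of 0.05 in any of the 4 comparisons, 36 tests in all, and 3 of the 36 were below an unadjusted p of 0.05: 1 in replicate 1, where 9.31% of all genes tested were, and 2 in replicate 4, where 2.49% were. Across all genes tested, the test called 0.0697% for replicate 1 and 0.0232% for replicate 3, and 0% for replicates 2 and 4, so few genes of any kind were called. Replicates 2 and 4, without a call, had 876 and 322 genes at an unadjusted p below 0.05, and DESeq2 called 19 and 0 genes there. DESeq2 called none of the 9 genes where it gave an adjusted p, and it gave none for Nr4a2 and Egr4 in replicates 1 and 2.

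The 3 differences below the unadjusted threshold were those of Egr3, Nr4a1 and Nr4a3. Egr3 was higher in replicate 4 by 0.28 on the log2 scale (SE 0.09, edgeR adjusted p = 1). Nr4a1 was higher in the same library by 0.23 (SE 0.09, edgeR adjusted p = 1). Nr4a3 differed in replicate 1 by −0.16 (SE 0.08, edgeR adjusted p = 0.518), and none of the 3 passed the adjustment over all genes.

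The genes differed in how much they varied. The coefficient of variation, the SD as a percentage of the mean, was 10.8% for Egr3, 9.35% for Nr4a1 and 7.21% for Nr4a3, where the 500 genes nearest in mean TPM had medians of 4.63%, 4.33% and 4.50%. For Egr3 97.0%, for Nr4a1 93.6% and for Nr4a3 83.8% of those genes varied less. Counting error alone would give 1.49%, 0.588% and 0.535% for these genes, below the observed spread.

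Egr1 was intermediate, with 5.71% against a median of 4.50%. Egr2 at 2.99%, Nab1 at 2.25% and Nab2 at 3.91% varied less than the median of genes of like level, which was 4.84%, 4.84% and 4.58%. For the low genes Nr4a2 (5.36%) and Egr4 (15.1%) the spread was no larger than the counting error of 5.49% and 16.6%. These values depend on single libraries. Without replicate 4, Egr3 came to 4.18%, below the 4.68% median of its neighbours, and Nr4a1 to 5.42% beside 4.54%. Egr1 also fell below its neighbours' median without replicate 4 (3.97% beside 4.72%). Nr4a3 stayed above its neighbours' median without any 1 library (5.08% to 8.76%). Nab1 came to 0.185% without replicate 2 and Nab2 to 0.645% without replicate 4, but Nab2 stood above its neighbours' median without replicate 1 (4.596% beside 4.13%) or replicate 2 (4.59% beside 4.07%). Egr2 came to 1.90% without replicate 1, Nr4a2 to 2.09% without replicate 4 and Egr4 to 8.77% without replicate 1. The larger spread of Egr3 and Nr4a1 thus rests mostly on their high level in replicate 4.

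**Figure D4:**
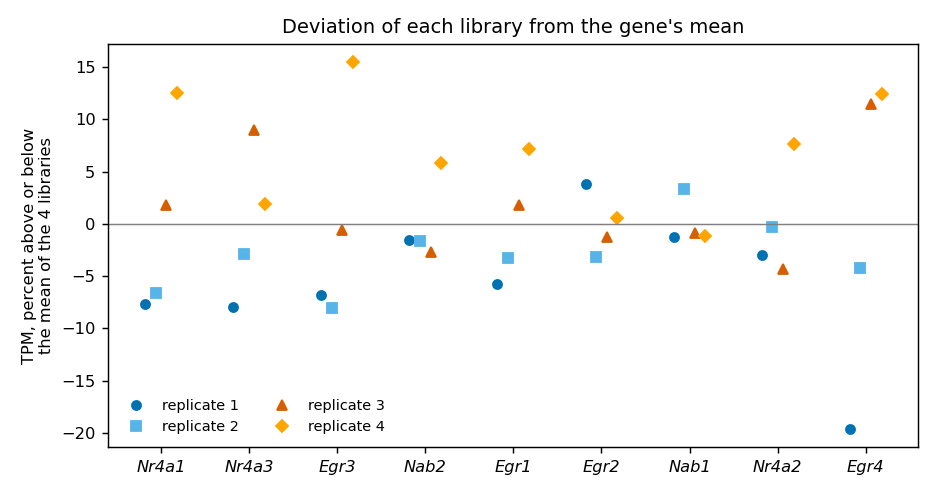
Deviation of each library's TPM from the gene's mean over 4 libraries, in percent, for each gene ordered by level; symbols are replicates. Replicate 4 is highest for 6 of the 9 genes, and for Nr4a1, Nr4a3, Egr1, Egr3 and Egr4 replicates 3 and 4 lie above replicates 1 and 2.

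For Nr4a1, Nr4a3, Egr1, Egr3 and Egr4, replicates 3 and 4 both lay above replicates 1 and 2. Among the expressed genes this was so for 4 of the 8 members and for 13.0% of all 11593. The pattern was noticed in the values and was not tested. The same pairs of libraries differ in sex-linked genes: Xist, transcribed from the inactive X chromosome of female cells, was at 172, 145, 0.255 and 0.367 TPM, and the Y-linked Ddx3y at 0.152, 0.0781, 45.1 and 45.0 TPM. Their part in the levels of the Nr4a and Egr genes was not tested, and with 2 libraries of each kind it cannot be told apart from other differences between those libraries.

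The Nr4a and Egr genes were also placed among 41 other early response genes, of which 39 were expressed and 17 were above 100 TPM in all 4 libraries. Of the 48 genes together, Nr4a1 ranked 6, Nr4a3 9, Egr3 14, Egr1 21, Egr2 23, Nr4a2 43 and Egr4 46 by mean TPM. The AP-1 subunits Junb and Jund led with 1141 ± 75.3 and 922 ± 176 TPM, followed by the MAP kinase phosphatase Dusp4 with 870.0 ± 35.2 TPM, and Fosb was last with 0.423 ± 0.166 TPM. Fos, named after its value was seen, is often induced beside Egr1 and stood at 2.53 TPM, and the Egr1 level was 49.2 ± 8.27 times the Fos level. The early response genes thus covered levels from 0.423 to 1141 TPM in the same cells.

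**Figure D5:**
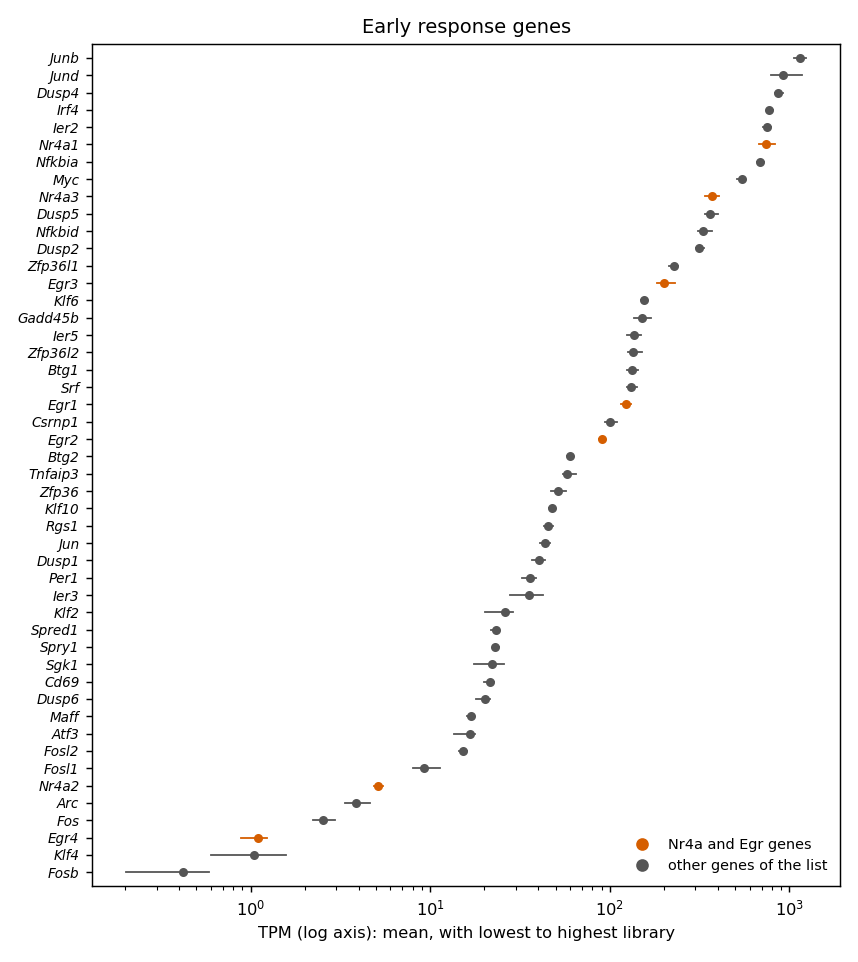
Mean TPM (log axis) of the Nr4a and Egr genes (orange) and 41 other early response genes (grey), with lines from the lowest to the highest of 4 libraries. Nr4a1 at 738 TPM is among the leading genes with Junb at 1141 TPM, and Egr4 at 1.10 TPM is near the lower end with Fos at 2.53 TPM.

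The genes that act before and beside the members were measured as well. Of 25 genes of the calcium, MAP kinase, cyclic AMP and serum response pathways upstream of Nr4a and Egr genes, 24 were expressed, among them Hdac7, a repressor of Nr4a1 in thymocytes (447 ± 44.6 TPM), and the kinase Map2k1 (142 ± 6.66 TPM). Of the MEF2 family, which binds the Nr4a1 promoter, Mef2c was the lowest gene of the list at 0.0141 TPM, whereas Mef2d stood at 73.1 ± 5.30 and Mef2a at 12.1 ± 0.618 TPM; these 2 are named after their values were seen. Of 16 genes of the NuRD complex and other Egr partners, 15 were expressed, led by Rbbp7 (540 ± 24.2 TPM), the remodeller Chd4 that Nab2 recruits (422 ± 26.0 TPM) and Mta2 (343 ± 9.96 TPM), and Wt1 had no count. Ddx20, an RNA helicase that binds Egr2, was at 55.8 ± 3.03 TPM. Most genes of this list were thus transcribed beside Nab1 and Nab2. Of all 50600 genes, 22.9% were expressed by the same rule. Whether the levels of these genes are particular to these cells or tied to the Nab genes was not tested. No gene of these groups passed the test of one library against the rest.

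Genes linked to these factors in T cells were counted without reading an effect from them. Of 21 genes linked to Egr2 and Egr3, 19 were expressed, led by the cell cycle inhibitor Cdkn1a (381 ± 13.5 TPM), Tnfsf11 (372 ± 23.0 TPM) and the cytokine signalling inhibitor Socs1 (315 ± 47.1 TPM), and Crtam was lowest at 0.0861 TPM. Of 20 genes linked to Nr4a factors, 16 were expressed, led by the interleukin 2 receptor chain Il2ra (1488 ± 19.4 TPM), Tnfrsf18 (580 ± 18.2 TPM) and Ctla4 (444 ± 27.4 TPM), and Il21 had no count. None of the genes of either list passed the test of one library against the other 3. With 1 group, whether they follow the Nr4a or Egr level cannot be compared.

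For the most abundant gene of each family, the protein-coding genes closest in level over the 4 libraries were found by the root mean square difference in log2(TPM + 1) among 21764 genes. Nearest to Nr4a1 were Rps10 (0.0752), Cyc1 (0.0811) and Ftl1 (0.0865), nearest to Egr3 were Cyfip2 (0.0823), Mea1 (0.0857) and Wdr83os (0.0908), and nearest to Nab2 were Ctps (0.0355), Slc2a1 (0.0359) and Bin2 (0.0363). Rps10, Cyc1 and Ftl1 were picked for closeness in level alone, so they do not place Nr4a1 with any class of genes. The nearest genes of Nr4a1 and Egr3 were further away than those of Nab2.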

How the data were processed

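RNA from 4 biosamples of regulatory T cells was sequenced, and the authors deposited a table of read counts per gene for each. Per the file headers, featureCounts 1.4.6-p4 counted read pairs with both ends aligned, over exons of GENCODE M13 and on the reverse strand; the build was mm10, and no aligner version is given in the sources used here. The total counts ran from 43821767 to 73819468.

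Gene names came from GENCODE M21, which named 50376 of 50600 gene identifiers. The deposited counts and the exon lengths beside them gave TPM. Each library was tested against the other 3 with edgeR 4.0.16 (TMM, filterByExpr, quasi-likelihood, Benjamini-Hochberg over 12917 genes). The comparison of replicate 1 was also run on simulated counts, where it missed some of the planted changes and made some false calls. The simulated spread depended only on a gene's level, so that run does not show how the test behaves on the real libraries. DESeq2 1.42.0 was an alternative, as were other scalings, filters, lengths and each library left out. Pairs of libraries differed by more than counting noise (chi-square per degree of freedom of at least 11.13), so all 4 were kept.

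The 9 genes and the gene lists were chosen with earlier results of these data known. Named were all 9 genes, the 3 highest and the lowest of each pathway list, stated partners (Rxra, Rxrb, Chd4, Ddx20), list genes called in a library, and the 3 genes most like the leading member of each family. Some genes that this rule names are not reported here. Marker lists are given by counts, sums or defining genes; the regulatory T and general T lists summed to 4474 to 4567 and 4597 to 4778 TPM. A granulocyte and mast cell list summed to at most 0.483 TPM and an erythroid list to at most 1.28 TPM. Promoter windows are from RefSeq on GRCm38.p6, the same coordinates as mm10; none of chromosome 18 is shown.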

Additional observations from a re-analysis of the deposited data

Results flagged for a closer look

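In 2 of the 9 genes, 1 library stood apart from the other 3 by Dixon's test for 4 values, a rule that chance meets in about 1 in 20 groups. For Nab1, replicate 2 was highest at 73.2 TPM, and its gap to the next library was 0.927 of the whole range over the 4 libraries. The range itself was narrow, since the highest Nab1 library was 1.05 times the lowest. For Nab2, replicate 4 was highest at 202 TPM, with a gap of 0.868 of the range and a highest library 1.09 times the lowest. The libraries concerned differ between the 2 corepressors. Among 132 other expressed genes of the lists, 9 met the same rule. Neither gene passed the edgeR test of that library against the other 3, where the log2 differences were 0.07 (SE 0.07, adjusted p = 0.862) for Nab1 and 0.11 (SE 0.08, adjusted p = 1) for Nab2.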

How the results depend on the processing

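No paired analysis was possible because all libraries belong to a single group. With 4 libraries and no second condition, only the spread between biosamples can be read. The count of neighbours without overlap and the count of expressed genes stayed within 1.5 times their values under each alternative run. The genes called in replicates 1, 2, 3 and 4 numbered 9, 0, 3 and 0; the DESeq2 Wald test called 16, 19, 8 and 0, and the test without a filter 105, 60, 35 and 16. Leaving out 1 of the other libraries gave 23 to 341 for replicate 1 (341 without replicate 4), 3 to 52 for replicate 2 (52 without replicate 1), 16 to 21 for replicate 3 (21 without replicate 4) and 2 to 9 for replicate 4 (9 without replicate 3); the cause was not tested. Of 212 values for the 9 genes with an adjusted p in these alternatives 0 were called (lowest adjusted p 0.138), and 203 kept their direction; DESeq2 gave no adjusted p for 4 more. The 9 that turned each came with 1 library left out. Over the libraries left out, the log2 difference of replicate 2 ran from −0.035 to 0.051 for Nr4a2, −0.12 to 0.0073 for Nr4a3 and −0.050 to 0.0097 for Nab2. That of replicate 3 ran from −0.0099 to 0.14 for Nr4a1, −0.041 to 0.0055 for Egr2, −0.062 to 0.11 for Egr3 and −0.023 to 0.014 for Nab1, and that of replicate 4 from −0.025 to 0.11 for Nr4a3 and −0.013 to 0.033 for Egr2. In counts not divided by length the shares were 44.9% for Nr4a1, 24.8% for Egr3 and 65.9% for Nab2. With the shortest APPRIS transcript as length, chosen after seeing the data, they were 66.4%, 44.0% and 75.3%, and the log2 ratio of Egr3 to Nab2 turned from 0.063 to −0.063; both shifts follow from the lengths used. The median coefficient of variation of the 9 genes ran from 3.97% (without replicate 4) to 6.55% (without replicate 2), beside 5.71% with all 4. Depth limits Egr4, with 24 to 57 counts.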
